A study of Mus musculus with 4 samples.

Results

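The mu-class glutathione S-transferase genes of the mouse, Gstm1 to Gstm7, were followed in F9 embryonal carcinoma cells with and without knockdown of Phf19. Members were all probe sets that the platform annotation pairs with exactly one of these symbols, which gave 12 probe sets for 7 genes, out of 45037 probe sets and 18193 genes in the series. Gstm1 had 4 probe sets, Gstm3 and Gstm7 had 2 each, and the other 4 genes had 1 each. The family was selected on measured differences between knockdown and control on these same arrays, and which probe sets led to the choice is not recorded, so the members' differences, intervals and calls below describe these arrays and support nothing further.

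Total RNA was measured on 4 Affymetrix mouse expression arrays. F9 is an established line that resembles undifferentiated embryonic cells. All cells had been infected with pLKO.1 lentivirus and kept under puromycin: the shVector group (2 arrays) carried the vector control, and the shPhf19 group (2 arrays) carried short hairpin RNA against Phf19, which encodes a Polycomb-like partner of the repressive complex PRC2. The labels name biological replicates, without saying whether they came from separate infections or how many hairpins were used. SDs therefore measure the spread between these arrays only, and limma's SEs and intervals also draw on the variance of other probe sets. By probe set 1427920_at, the log2 value of Phf19 itself was 6.11 ± 0.05 (mean ± SD, n = 2) for shVector and 5.13 ± 0.07 for shPhf19 (difference -0.98 ± 0.10 SE; limma adjusted p = 0.0108), whereas probe set 1431857_at gave 6.21 ± 0.15 and 6.16 ± 0.15 (adjusted p = 0.928).

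Glutathione S-transferases join the tripeptide glutathione to reactive, electrophilic compounds, which makes these compounds more soluble and ready for export. The mu class is one of the cytosolic classes, whose enzymes work as dimers. Its genes lie side by side in the genome and encode very similar proteins, and several respond to Nrf2, the transcription factor of the antioxidant response. Mouse and human members with the same number are not always counterparts. In the RefSeq gene table of GRCm38.p6 all 7 genes lie on chromosome 3 in the order Gstm5, Gstm7, Gstm6, Gstm3, Gstm2, Gstm1 and Gstm4, with 0 other protein-coding genes between the outermost members.

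The promoters of the cluster were unlike each other in the number of CpG sites. In mammals, Polycomb complexes bind mostly at CpG-rich promoters. The 250 bases before an annotated start are shown for Gstm2, its neighbour Gstm1 and Gstm5. Gstm2 was the member with the largest difference between groups. Gstm5 had the most CpG sites in the promoter windows of 300 bases described below. In the 250 bases alone, Gstm5 had 13 CpG sites, and the sequences before both starts of Gstm4 had 14 each. Gstm1 also has a second annotated start, with 13 CpG sites before it, against 8 before the start shown. CpG sites are in capitals.
Gstm2, chr3:107986421-107986670, minus strand: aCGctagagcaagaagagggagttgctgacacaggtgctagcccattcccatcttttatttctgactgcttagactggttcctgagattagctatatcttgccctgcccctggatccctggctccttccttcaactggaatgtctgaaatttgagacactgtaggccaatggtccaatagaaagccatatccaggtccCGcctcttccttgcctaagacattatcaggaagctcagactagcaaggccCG
Gstm1, chr3:108017819-108018068, minus strand: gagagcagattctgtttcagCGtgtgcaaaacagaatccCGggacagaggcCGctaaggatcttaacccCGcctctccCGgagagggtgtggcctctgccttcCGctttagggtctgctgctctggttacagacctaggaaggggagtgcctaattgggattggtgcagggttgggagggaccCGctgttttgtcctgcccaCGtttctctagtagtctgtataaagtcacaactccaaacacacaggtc
Gstm5, chr3:107895604-107895853, plus strand: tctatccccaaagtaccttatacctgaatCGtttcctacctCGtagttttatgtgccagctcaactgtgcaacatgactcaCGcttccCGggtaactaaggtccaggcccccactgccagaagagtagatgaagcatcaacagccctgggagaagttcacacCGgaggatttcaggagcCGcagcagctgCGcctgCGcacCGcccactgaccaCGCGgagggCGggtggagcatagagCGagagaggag
Sequences are from RefSeq, build GRCm38.p6. The table of values names no build, so these coordinates belong to the sequences and not to the probe sets.

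RefSeq promoter windows of 300 bases (250 before and 50 after the start) were found for all 7 genes, 12 windows in all. The Gstm2 window held 3 CpG sites and was 50% G or C. Of all 32851 windows in the table, whose median was 7 CpG sites, 31.4% held as few as Gstm2. The single window of Gstm3 held 5 CpG sites, the 3 windows of Gstm6 held 4, 5 and 9, and the 2 windows of Gstm7 held 6 and 9. Gstm1 had 2 windows with 8 and 14 sites, and both windows of Gstm4, whose starts lie 3 bases apart, held 14. Gstm5 held 18, a number reached by 29.7% of all windows. Gstm2 was thus the member with the fewest CpG sites in its window.

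**Figure D1:**
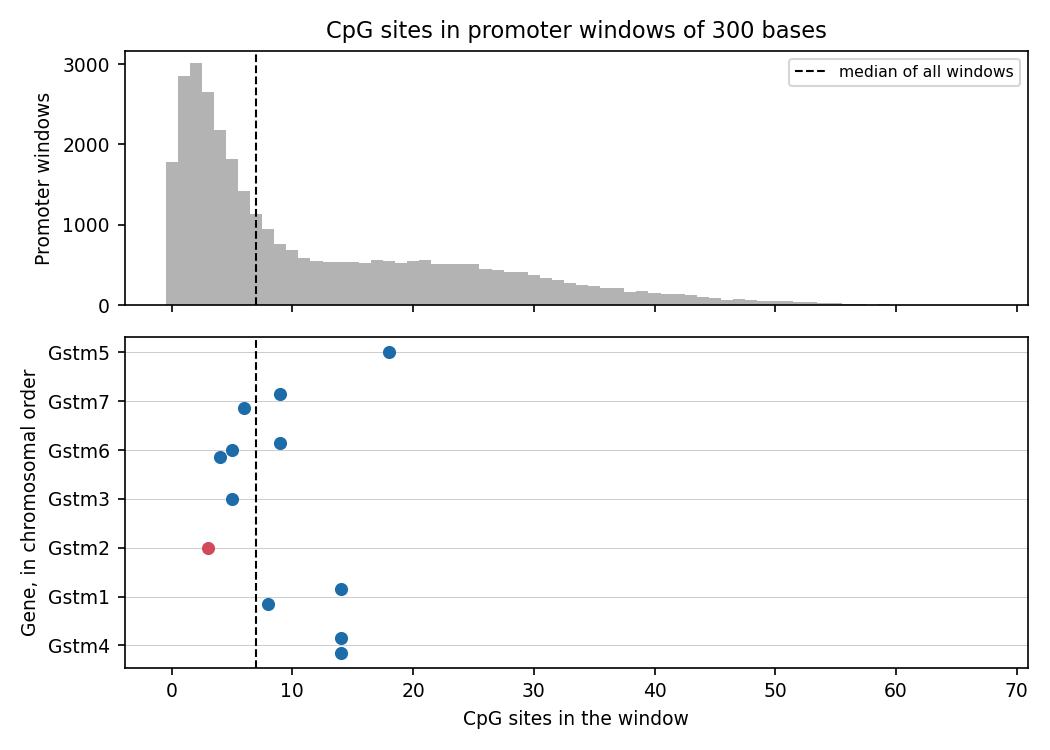
CpG sites in promoter windows of 300 bases. The upper panel counts all 32851 RefSeq windows by their number of CpG sites, with the median of 7 as a dashed line, and the lower panel shows each window of the 7 genes as a point (Gstm2 in red, at 3 sites; Gstm5 farthest to the right, at 18).

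Motifs were searched on both strands of the same windows. The core of the antioxidant response element (TGACNNNGC, bound by Nrf2 with small Maf proteins) was present in 2 of 12 member windows, against 12.4% of all windows. The matches were TGACCACGC in Gstm5 and TGACAAAGC in 1 window of Gstm7. The AP-1 motif (TGANTCA) was present in the Gstm5 window alone among members, against 7.81% of all windows. The core of the xenobiotic response element (GCGTG, bound by the aryl hydrocarbon receptor) was present in 3 member windows, that of Gstm5 and both overlapping windows of Gstm1, against 32.4% of all. In Gstm5 the reverse complement of this core overlaps both the antioxidant core and the AP-1 match. A TATA box (TATAAA) was present in 3 member windows, against 13.6% of all. In Gstm1 it began 30 bases before the start, in 1 window of Gstm7 it lay 231 bases before it, and in Gstm5 40 bases past it. None of the 4 motifs was found in the windows of Gstm2, Gstm3, Gstm4 or Gstm6. These matches only describe letters within the windows.

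Gstm2 fell in shPhf19 cells. Gstm2 encodes a cytosolic enzyme of the class, and its human namesake is known for conjugating oxidised catecholamines. Its single probe set, 1416411_at, read 5.87 and 5.86 on the shVector arrays and 4.75 and 4.63 on the shPhf19 arrays (log2 values, replicates 1 and 2). Both knockdown arrays lay far below both control arrays, and the control arrays nearly coincided. The group means were 5.87 ± 0.004 (SD, n = 2) and 4.69 ± 0.08, a difference of -1.18 ± 0.10 (SE) with a 95% interval from -1.41 to -0.95. On the linear scale this left 44.1% of the control signal (95% interval 37.6% to 51.8%), or a 2.27-fold fall. Of all 45037 probe sets, 26 had a difference as low or lower, Gstm2 included.

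The control level of Gstm2 was close to the middle of the arrays. The median over all probe sets and arrays was 5.75, so Gstm2 was just above it in shVector and below it in shPhf19. The table has no detection calls, and a knockdown value under the median may contain background signal, in which case the fold change is understated. With 1 probe set, no second measurement of Gstm2 was at hand.

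As a description only, since the family was selected on this comparison, 1 of the 12 member probe sets was called lower at an adjusted p under 0.05 in the limma fit over all probe sets, that of Gstm2. Over all 45037 probe sets the share called lower was 0.582%, the share called higher 0.830% and the share called in either direction 1.41%. The other 11 member probe sets were not called, with differences between -0.33 and 0.11 on the log2 scale. The call was lost when either replicate of shVector or either replicate of shPhf19 was dropped: limma then called 0 probe sets in all, with 2539 to 6942 at an unadjusted p under 0.05. The difference itself then ran from -1.24 to -1.12.

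**Figure D2:**
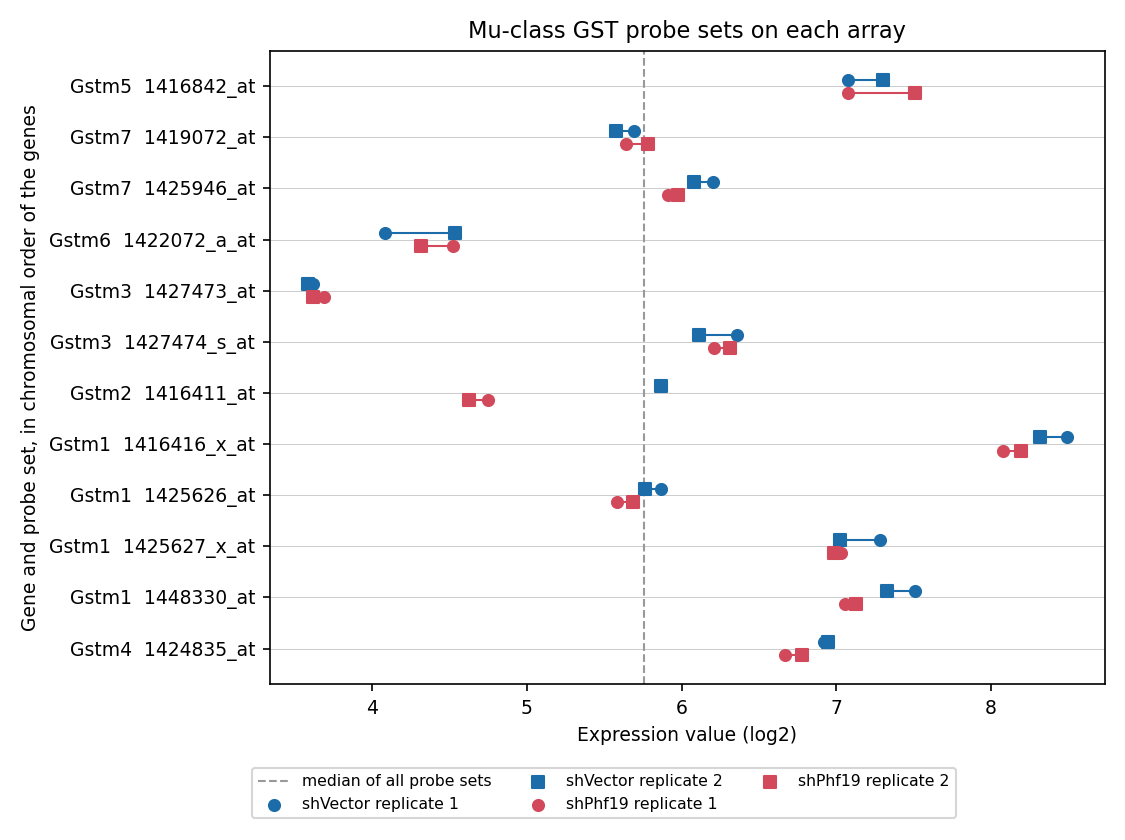
Log2 expression value of each of the 12 mu-class probe sets on each of the 4 arrays, with a line joining the 2 arrays of a group and the median of all probe sets (5.75) dashed. Gstm2 is the row where the groups stand farthest apart, at 5.86 to 5.87 in shVector and 4.63 to 4.75 in shPhf19; values should be read along a row, since levels of different probe sets are not comparable.

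Gstm1, the neighbour of Gstm2 and a main mu-class enzyme of mouse liver, had lower means in shPhf19 by all 4 probe sets, but none was called. Probe set 1448330_at read 7.51 and 7.33 in shVector and 7.06 and 7.13 in shPhf19, a difference of -0.33 ± 0.10 (SE; 95% interval -0.56 to -0.09). Probe set 1416416_x_at read 8.49 and 8.32 in shVector and 8.08 and 8.19 in shPhf19, a difference of -0.27 ± 0.10 (95% interval -0.50 to -0.04). In both, the 2 groups did not overlap, and the gap between the control arrays was 0.18 and 0.17.

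The other pair of Gstm1 probe sets was closer to 0. Probe set 1425626_at read 5.87 and 5.77 in shVector and 5.59 and 5.68 in shPhf19 (difference -0.18 ± 0.10). Probe set 1425627_x_at read 7.28 and 7.03 in shVector and 7.03 and 6.99 in shPhf19, so that the groups overlapped (difference -0.15 ± 0.11). The array shVector replicate 1 was the highest of the 4 arrays in all 4 Gstm1 probe sets, and in 7 of the 12 member probe sets. The share over all probe sets was not computed, and for Gstm2 its lead over shVector replicate 2 was 0.006. With shVector replicate 1 left out, the 4 differences of Gstm1 were -0.23, -0.18, -0.13 and -0.02, in the order 1448330_at, 1416416_x_at, 1425626_at and 1425627_x_at. The 4 probe sets rest on 2 annotated source records, each shared by a pair (1416416_x_at with 1448330_at, and 1425626_at with 1425627_x_at), so they are not 4 independent readings.

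Gstm4, on the other side of Gstm1, and 1 of the 2 probe sets of Gstm7 had differences of similar size. For Gstm4, whose human namesake can form leukotriene C4, probe set 1424835_at read 6.92 and 6.95 in shVector and 6.67 and 6.78 in shPhf19 (difference -0.21 ± 0.09 SE, 95% interval -0.43 to 0.01). The groups did not overlap. For Gstm7, probe set 1425946_at read 6.20 and 6.08 in shVector and 5.91 and 5.97 in shPhf19 (difference -0.20 ± 0.10, 95% interval -0.43 to 0.03), whereas 1419072_at read 5.69 and 5.57 in shVector and 5.64 and 5.78 in shPhf19 (difference 0.08 ± 0.10, 95% interval -0.17 to 0.33). The 2 probe sets of Gstm7 therefore differed in sign, and the second had overlapping groups.

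Gstm3, Gstm5 and Gstm6 showed overlapping groups in every probe set. Gstm3, which is among the mouse mu-class genes known to respond to Nrf2, read 6.36 and 6.11 in shVector and 6.21 and 6.31 in shPhf19 by 1427474_s_at (difference 0.03 ± 0.11 SE). Its other probe set, 1427473_at, was below the array median on all 4 arrays, at 3.58 to 3.61 in shVector and 3.61 to 3.69 in shPhf19 (difference 0.05 ± 0.09). Both come from 1 source record, so a low reading in one of them need not mean that the transcript is low.

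Gstm5, the counterpart of human GSTM3 and known from testis and brain, had a wide spread. It read 7.07 and 7.31 in shVector and 7.07 and 7.51 in shPhf19, with replicate 2 above replicate 1 in both groups (difference 0.10 ± 0.16 SE, 95% interval -0.28 to 0.48). Gstm6 read 4.08 and 4.54 in shVector and 4.52 and 4.31 in shPhf19, below the array median throughout (difference 0.11 ± 0.16, 95% interval -0.29 to 0.50). The sign of Gstm5, of Gstm6 and of Gstm3 by 1427474_s_at depended on the arrays included: with 1 array left out they ran from -0.12 to 0.32, from -0.12 to 0.33 and from -0.10 to 0.15.

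Over the 12 member probe sets, 7 had a mean difference below 0 and 5 above 0, with a median of -0.16 on the log2 scale against -0.01 over all probe sets. By the probe set with the highest mean for each gene, the median over the 7 genes was -0.20, against 0.00 over 18193 genes. That median is the value of Gstm7 by 1425946_at, whereas the other probe set of Gstm7 was at 0.08. The sign of the median over genes therefore rests on which probe set stands for Gstm7. In 6 of the 12 both knockdown arrays lay below both control arrays, which held for 21.0% of all probe sets, and in 0 of 12 both lay above (19.4% of all). These 6 include 3 probe sets of Gstm1, and the probe sets of a family so alike may pick up each other's transcripts. The suffixes record this in part: 2 probe sets end in _x_at and 1 in _s_at, both of which allow hybridisation to related transcripts, 1 ends in _a_at (several transcripts of 1 gene), and 8, including that of Gstm2, end in plain _at. How much signal of one member came from another was not tested.

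**Figure D3:**
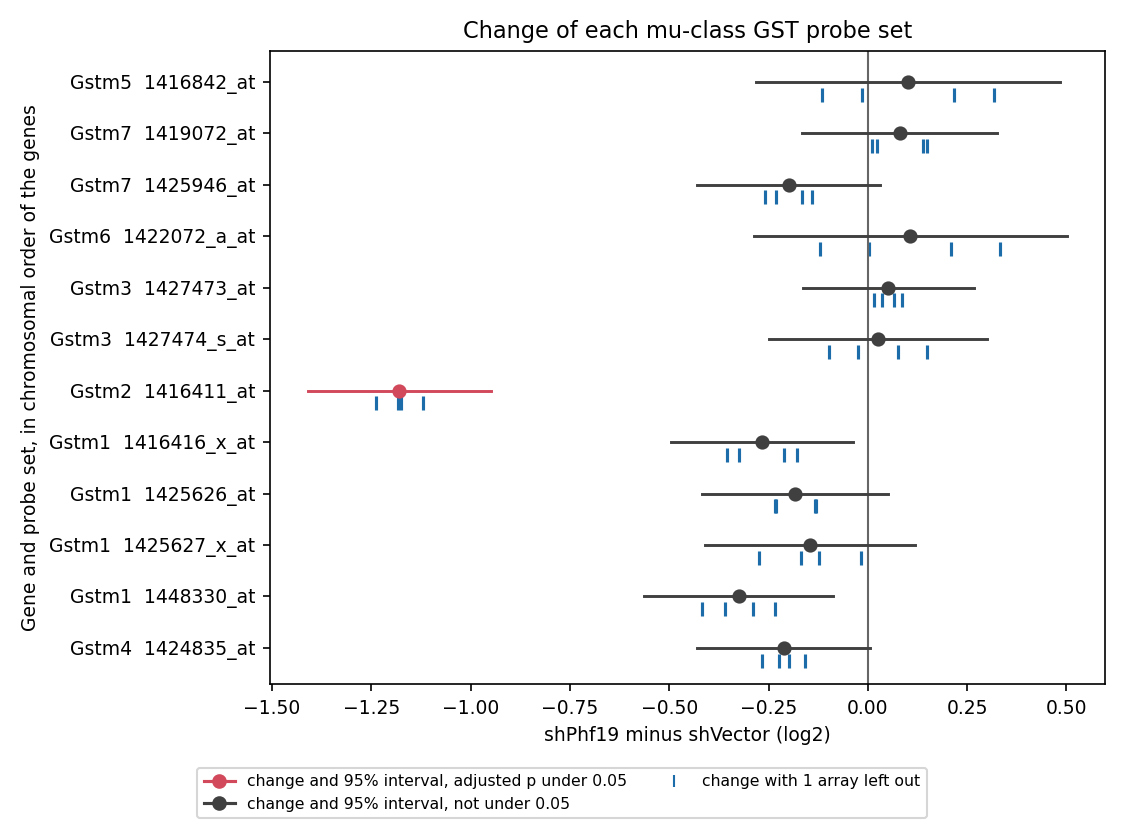
Difference between groups (shPhf19 minus shVector, log2) for each mu-class probe set with its 95% interval from limma, and blue ticks for the difference with 1 array left out. Gstm2 (red, -1.18) lies apart from the other 11 probe sets, which lie between -0.33 and 0.11; the ticks of Gstm5, Gstm6 and 1427474_s_at of Gstm3 fall on both sides of 0.

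Genes outside the family whose values followed those of Gstm2 most closely over the 4 arrays were found by distance, each probe set centred on its own mean. Of 34933 probe sets of other single genes, the 5 nearest were those of Id4, an inhibitor of helix-loop-helix transcription factors (root mean square distance 0.03 on the log2 scale), Camta1, a calmodulin-binding transcription activator (0.05), AU018091 (0.07), Wdr92 (0.08) and Myo1f, an unconventional myosin (0.08). Id4 read 7.99 and 8.07 in shVector and 6.88 and 6.77 in shPhf19, a difference of -1.21. The differences of Camta1, AU018091, Wdr92 and Myo1f were -1.19, -1.05, -1.09 and -1.03. With 4 arrays in 2 groups, such closeness mostly reflects an equal difference between groups, and the Wdr92 probe set carries the _x_at suffix.

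The other glutathione S-transferase classes were not called in either direction: 0 of 15 measured genes passed, with a median difference of 0.02 and a range from -0.59 to 0.44. At an unadjusted p under 0.05 limma placed 7 of the 15, a level reached by 15.1% of all 18193 genes, against which the further counts at an unadjusted p can be read. Gsto1, of the omega class, had means of 10.05 ± 0.03 (SD, n = 2) and 10.41 ± 0.01 in shVector and shPhf19 (difference 0.36 ± 0.06 SE, limma adjusted p = 0.0529). Gstp3, of the pi class, averaged 6.46 ± 0.03 and 5.87 ± 0.12 (difference -0.59 ± 0.10, adjusted p = 0.0536). Both were just short of the threshold and passed under other settings: Gsto1 under 4 and Gstp3 under 5, with adjusted p down to 0.0390 and 0.0195.

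Among genes of the membrane-associated family, whose proteins do not share the fold of the cytosolic classes, 1 of 6 rose and none fell. Of all genes, 1.15% were called higher and 0.863% lower. Mgst1, a microsomal glutathione transferase, had means of 6.70 ± 0.11 (SD, n = 2) and 7.80 ± 0.25 in shVector and shPhf19, a 2.15-fold rise (difference 1.10 ± 0.14 SE, limma adjusted p = 0.0199). Its other probe set, 1415898_at, was dim and did not follow (3.37 and 3.25, difference -0.12 ± 0.10). Averaged over both probe sets, Mgst1 was at 0.49 and still called. Mgst1 and Gstm2 thus moved in opposite directions on the same arrays.

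Of 18 listed genes of glutathione synthesis and breakdown 17 were measured, of which 1 fell and none rose. Of all genes, 0.863% were called lower and 1.15% higher. Slc7a11, the transporter that imports cystine for glutathione synthesis, averaged 9.35 ± 0.19 in shVector and 8.46 ± 0.0004 in shPhf19 (SD, n = 2; difference -0.89 ± 0.10 SE, limma adjusted p = 0.0169), and its other probe set also passed (-0.67 ± 0.10, adjusted p = 0.0398). The median of the list was -0.07, with 13 of the 17 genes below 0 and 4 above. Chac1, Cth and Gclm (lower) and Gclc (higher), named afterwards, had an unadjusted limma p under 0.05 but did not pass in the main fit. Of 20 measured genes of glutathione use and recycling, 0 passed with limma and 4 had an unadjusted p under 0.05 (median 0.00). Those with the smallest p were Abcc5 (-0.24 ± 0.07, adjusted p = 0.195) and Abcc4 (0.14 ± 0.05, adjusted p = 0.340), both ATP-driven export pumps. The 10 probe sets of Abcc5 ranged from -0.29 to 0.14.

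The Nrf2 pathway, to which several mu-class genes respond, was called at 1 of 28 measured genes, which rose (1.15% of all genes were called higher). Akr1b8, an aldo-keto reductase, had means of 10.59 ± 0.07 (SD, n = 2) and 11.59 ± 0.01 in shVector and shPhf19, a 2.00-fold rise (difference 1.0 ± 0.06 SE, limma adjusted p = 0.00693). The median of the list was 0.05, with 12 of the 28 genes below 0, 16 above 0 and none called lower. Me1 (-0.33) and Ugdh (-0.29), named afterwards, were called lower when the probe sets of each gene were averaged. The unadjusted limma p was under 0.05 for Akr1b8, Srxn1 and Bach1 (higher) and for Ugdh, Me1 and Sqstm1 (lower). Nfe2l2, which encodes Nrf2, and the targets Nqo1 and Hmox1 were named after their values were seen. They were at -0.10 ± 0.09, -0.13 ± 0.09 and -0.18 ± 0.11, and did not pass. Srxn1 and Bach1, named in the same way, were above 0, at 0.29 ± 0.08 and 0.16 ± 0.06, and did not pass either.

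Of 12 measured xenobiotic receptor and phase I genes 0 passed with limma, and 1 had an unadjusted p under 0.05 (median 0.01). Those with the smallest p were Tiparp, a target of the aryl hydrocarbon receptor (0.24 ± 0.07 SE, adjusted p = 0.192), and Cyp1a1, its classical target (0.18 ± 0.09, adjusted p = 0.489). By its other probe sets Tiparp was at 0.14 and -0.01, with overlapping groups. On all 4 arrays 8 of the 12 genes, Cyp1a1 among them, were below the array median, and 3 were at or above it. The neighbourhood of the cluster was also not called. Of the 10 protein-coding genes on each side, 18 were measured and 0 passed, with 2 at an unadjusted p under 0.05 and a median of -0.02. Slc16a4, which belongs to the monocarboxylate transporter family, was at 0.41 ± 0.13 (adjusted p = 0.257), at 0.24 without shPhf19 replicate 1, and at 0.09 ± 0.12 with overlapping groups by its other probe set. Eps8l3, an Eps8-related gene, was at -0.24 ± 0.10 (adjusted p = 0.377).

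**Figure D4:**
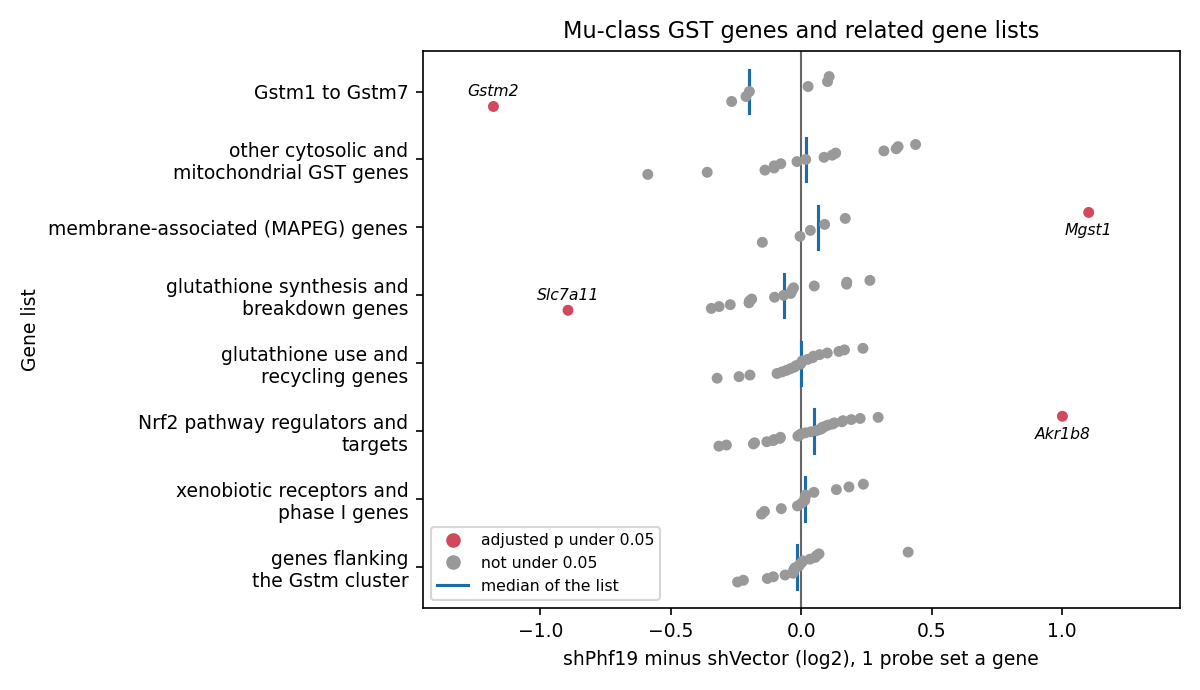
Difference between groups (shPhf19 minus shVector, log2) for the 7 mu-class genes and for 7 gene lists, 1 probe set a gene, with blue bars at the median of each list. Called genes are red and named: Gstm2 (-1.18) and Slc7a11 (-0.89) were lower, and Mgst1 (1.10) and Akr1b8 (1.0) were higher.

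Cell type markers were read in the same fit, in which 1.15% of all genes were called higher and 0.863% lower. All 8 markers of embryonal carcinoma cells, among them Pou5f1, Sox2 and Nanog, were above the array median on all 4 arrays, and 1 rose, Dnmt3b (0.28 ± 0.05 SE, limma adjusted p = 0.0482). That call was lost without an intensity trend (adjusted p = 0.227) and with a block that pairs replicate 1 of each group with replicate 2 of the other (adjusted p = 0.0555; chosen after seeing the data), and its other probe set was not called (adjusted p = 0.0595). Nanog, named afterwards, was at -0.26 ± 0.05 (adjusted p = 0.0923), and the median of the list was 0.01. Of 9 visceral endoderm and liver markers 1 rose, Cubn (2.30 ± 0.09, adjusted p = 0.00147). The other probe set of Cubn was also called higher (1.34 ± 0.12, limma adjusted p = 0.0098). The mean log2 value over these 9 was 5.48 to 5.52 in shVector and 5.71 to 5.74 in shPhf19, while their median difference was 0.00, with 5 of 9 below 0. On all 4 arrays 3 of the 9 were at or above the array median and 4 were below it. Of 8 fibroblast markers 0 passed and 2 had an unadjusted p under 0.05, Pdgfrb (-0.68 ± 0.14, adjusted p = 0.0923) and Thy1 (0.46 ± 0.12, adjusted p = 0.169). The other probe set of Pdgfrb, 1417148_at, was at -0.11 ± 0.11 with overlapping groups. The mean over the 8 fibroblast markers was 4.77 to 4.79 in shVector and 4.63 to 4.69 in shPhf19, with a median difference of -0.18. The part of these markers in the difference of Gstm2 was not tested, and in bulk RNA fewer cells with a transcript and less of it per cell cannot be told apart.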

How the data were processed

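Total RNA of 2 shVector and 2 shPhf19 cultures was biotin-labelled and hybridised to Affymetrix arrays, per the labels' protocols. The deposited table holds 1 value per probe set and array, taken as log2 expression. The scale was read from the values, which ran from 2.31 to 14.7. Array medians lay between 5.75 and 5.77, so the arrays were taken to be normalized before deposit. Neither software nor background correction is named in the deposited data or labels used. The number of arrays limits the precision.

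After removal of 64 control probe sets, 45037 were fitted with limma 3.58.1 in R 4.3.3 (eBayes, variance trend on intensity). Differences are shPhf19 minus shVector, tests were two-sided, and p-values were adjusted over the whole array by Benjamini-Hochberg, with a threshold of 0.05. SE is limma's moderated standard error. Where a gene had several probe sets, the one with the highest mean stands for it. Of 109 pathway genes, those without such a probe set were not analysed here. Members, lists and rules were chosen with earlier results of these data known. Named genes are every member, Phf19, per list up to 3 called genes a direction or else the 2 with the smallest p, and the 5 nearest to the member with the largest difference. The fit was tested on simulated data. Alternatives were normalization, variance trend, filters on dim probe sets, probe set averaging, replicate blocks and leaving out arrays.

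The groups share replicate numbers that no label ties to a shared day. Same-numbered arrays deviated from their group means with a correlation of -0.197 over probe sets, so the fit has no replicate term.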

Additional observations from a re-analysis of the deposited data

How the results depend on the processing

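As a description, since the family was selected on this comparison, the count of members called was 1, that of Gstm2, under quantile normalization, median centring, no intensity trend, the 25% filter on dim probe sets and the crossed replicate block (chosen after seeing the data). With the lowest 50% of probe sets removed, 0 members were called because Gstm2 itself was removed. With the replicate block 0 probe sets were called in all (3890 at an unadjusted p under 0.05), so 0 members, 0 genes of any list and not Phf19 (-0.98, adjusted p = 0.203); the difference of Gstm2 stayed at -1.18. The numbers only name the samples. With 1 array left out, which leaves 1 group with a lone array assumed to vary like the other group, every count of calls was 0, over all probe sets and for the members, Mgst1, Slc7a11 and Akr1b8 alike. Phf19 ran from -1.03 to -0.93. Differences changed sign for Gstm3 by 1427474_s_at (-0.10 to 0.15), Gstm5 (-0.12 to 0.32), Gstm6 (-0.12 to 0.33) and Phf19 by 1431857_at (-0.16 to 0.052). Without an intensity trend, 229 probe sets were called higher and 151 lower, against 374 and 262. Among other glutathione S-transferases, Gsto1 gave 1 higher call with quantile normalization, either filter or the mean of probe sets. Gstp3 gave 1 lower call with these and median centring, and the crossed block called 1 lower, Gstp1. Genes of glutathione synthesis and breakdown called lower numbered 3 by the mean of probe sets (Slc7a11, Cth and Chac1) and 2 with the crossed block (596 probe sets in all). The mean of probe sets also called 2 genes of the Nrf2 list lower, Me1 and Ugdh. The cause of these moves was not tested. Level limits the dim probe sets, since no detection calls were at hand.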
